A study of Mus musculus with 9 samples.

Results

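The interferon regulatory factors (IRFs) are a family of transcription factors, of which 8 genes are described here (Irf1, Irf2, Irf3, Irf4, Irf5, Irf7, Irf8 and Irf9), found by symbol among the 32976 genes of the count tables. The cells were CD8+ T cells specific for GSW11, a peptide antigen of the mouse colorectal tumor CT26.WT, sorted with peptide-MHC tetramers from the tumors of wildtype BALB/c mice. All groups had received the anti-PD-1 antibody RMP1-14 on days 3, 6 and 9 after implantation, so no untreated group enters a comparison. TetHighProg held cells with high tetramer staining (high TCR avidity) from progressing tumors, TetLowProg held low-staining, low avidity cells from progressing tumors, and TetLowReg held low avidity cells from regressing tumors. Each group had 3 Smart-seq2 RNA libraries, named by their replicate numbers (TetHighProg 1, 2 and 5, TetLowReg 6, 7 and 8, and TetLowProg 9, 10 and 12). The study describes TetHighProg and TetLowProg as sorted from the same set of progressing tumors, but the labels do not tie libraries to tumors or mice. The fits therefore treat the libraries as unpaired, and the p values measure the spread between these libraries.

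IRF proteins bind DNA motifs built around GAAA through a shared N-terminal domain. IRF1 activates interferon-responsive genes and IRF2 competes for the same sites. IRF3 and IRF7 switch on the type I interferon genes after sensing of nucleic acids, IRF5 acts downstream of Toll-like receptors, IRF9 is the main DNA-binding part of the complex ISGF3, and IRF4 and IRF8 act in lymphocytes and myeloid cells with partners such as PU.1 (Spi1) and BATF. In T cells IRF4 rises with the strength of TCR signaling, while IRF8 is best known from B cells, dendritic cells and macrophages and is also found in effector CD8+ T cells.

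Sequence upstream of the start of the canonical transcript is shown for Irf1, Irf2 and Irf8, the 3 members that held a searched motif there. The window was 250 bases long in the reference genome GRCm39, which is not the BALB/c genome, and each printed stretch stops before the first base annotated as a UTR. Capitals mark matches to 2 copies of GAAA with any 2 bases between them, the core of the interferon-stimulated response element bound by IRFs and ISGF3, searched on both strands, and to TTCNNNGAA, the palindromic site of STAT dimers. In Irf2 both motifs were found, without overlap.
Irf1, chr11:53660591-53660811, plus strand: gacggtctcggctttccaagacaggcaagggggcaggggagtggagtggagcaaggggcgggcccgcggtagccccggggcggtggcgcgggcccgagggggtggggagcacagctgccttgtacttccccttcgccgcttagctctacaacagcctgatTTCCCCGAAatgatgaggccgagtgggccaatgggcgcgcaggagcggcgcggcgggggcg
Irf2, chr8:47192510-47192749, plus strand: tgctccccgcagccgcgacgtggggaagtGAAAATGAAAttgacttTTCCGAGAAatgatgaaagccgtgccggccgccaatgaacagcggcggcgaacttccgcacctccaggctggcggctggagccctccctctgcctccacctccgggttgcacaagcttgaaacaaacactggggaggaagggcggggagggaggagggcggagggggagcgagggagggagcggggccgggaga
Irf8, chr8:121462847-121463095, plus strand: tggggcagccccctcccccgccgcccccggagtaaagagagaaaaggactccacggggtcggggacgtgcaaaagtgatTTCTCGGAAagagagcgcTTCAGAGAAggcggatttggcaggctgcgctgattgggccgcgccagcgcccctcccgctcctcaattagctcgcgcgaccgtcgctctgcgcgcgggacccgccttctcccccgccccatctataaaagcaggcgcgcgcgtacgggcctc
The STAT motif began at -90 in Irf1, at -204 in Irf2 and, for the first of 2 matches, at -171 in Irf8. It stood in 3 of 8 members and in 7.52% of 20726 promoters of protein-coding genes, and the IRF motif stood in 1 member, Irf2, and in 3.26% of promoters. These are letter matches. Irf3, Irf4, Irf5, Irf7 and Irf9 held no match in the window.

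The libraries differed more in how many genes they contained than in depth. Reads assigned to genes numbered 16405306 to 36429515 in a library, but 4 libraries (TetHighProg 1 and 2, TetLowReg 6 and TetLowProg 10) held only 599 to 1298 genes with 10 or more counts, against 3181 to 8071 in the other 5. T cell markers were present in every library (4 to 12 of 12 markers at 10 counts). Of the 8 members, 1, 0 and 2 were detected (10 or more counts) in TetHighProg 1, 2 and 5, 1, 4 and 4 in TetLowReg 6, 7 and 8, and 7, 0 and 4 in TetLowProg 9, 10 and 12. TetHighProg 2 and TetLowProg 10 had not 1 read on any member. Over a group these are 12.5%, 37.5% and 45.8% of the member and library pairs, and at 1 count in place of 10 they are 25.0%, 54.2% and 50.0%, which turns the order of the low avidity groups. Over the 13373 genes that reached 10 counts in any library, the same shares were 12.7%, 39.9% and 39.04%. Over all genes of the count tables, found or not, they were 5.13%, 16.2% and 15.8%. The members' shares lay close to those of genes found in some library and above those of all genes. In bulk RNA, fewer cells of a type and less RNA per cell cannot be told apart.

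**Figure D1:**
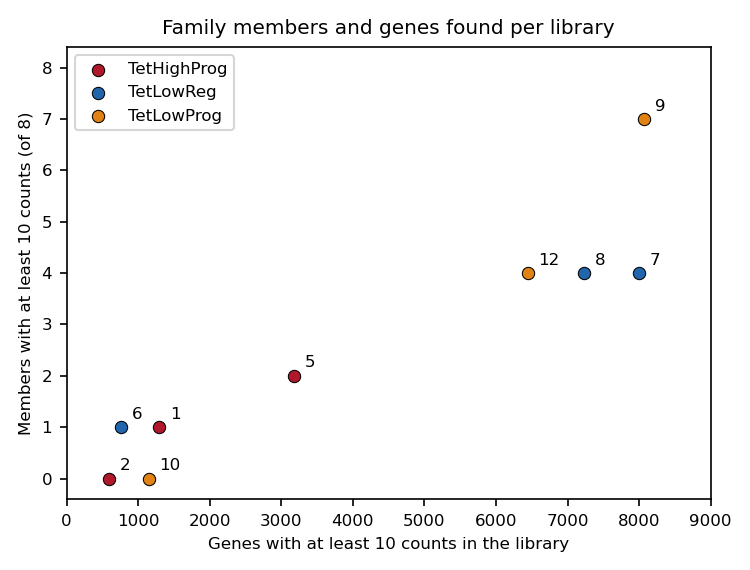
Number of the 8 members with at least 10 counts (vertical axis) against the number of genes with at least 10 counts (horizontal axis) in each library. Colors give the group and numbers the replicate. The 4 libraries with 599 to 1298 genes hold 0 or 1 member, and TetLowProg 9, with 8071 genes, holds 7.

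Irf1 was the member found most often, in 7 of 9 libraries, and its levels overlapped across the groups. It lies on chr11:53660812-53669200 (plus strand). Its counts were 1871, 0 and 4829 in TetHighProg, 5182, 324 and 17 in TetLowReg, and 36552, 0 and 1521 in TetLowProg. Per 1000000 gene counts (CPM) this was 56.0, 0 and 213 in TetHighProg, 235, 8.89 and 1.04 in TetLowReg, and 1006, 0 and 48.3 in TetLowProg. TetLowProg 9 was the highest, and a library at 0 stood beside it in the same group. Irf1 was also the only member detected in TetHighProg 1 and TetLowReg 6. In TetLowReg, the library with the fewest genes had the highest level and the gene-rich libraries 7 and 8 the lowest. The edgeR log2 fold change was -0.12 (SE 3.91, adjusted p = 0.993) for TetLowReg against TetHighProg, 1.53 (SE 4.00, adjusted p = 0.9004) for TetLowProg against TetHighProg and 1.66 (SE 4.01, adjusted p = 1.0) for TetLowProg against TetLowReg. Without TetLowProg 9 the last 2 values were -1.65 and -1.59. On the 5 libraries with more than 3000 genes the values were -4.45 (SE 2.46, edgeR adjusted p = 0.694), 0.87 (SE 2.54, adjusted p = 1.0) and 5.33 (SE 2.40, adjusted p = 0.701), none of them called. Of the merged exons of Irf1, 2086 of 4678 bases are shared with antisense transcripts, and a library without strand cannot separate these. Counting each strand alone added 2921 reads (5.81%) to Irf1.

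Irf2, the antagonist, was found in 5 libraries, all of which also held Irf1. It lies on chr8:47192222-47300501 (plus strand). Its counts were 1, 0 and 5009 in TetHighProg, 0, 151 and 1030 in TetLowReg, and 581, 0 and 433 in TetLowProg. The 5 libraries were those with more than 3000 genes, TetHighProg 5 was the highest, and the groups overlapped. The mean level in TetHighProg was 73.6 ± 127 CPM (SD, n = 3). TetLowReg had a mean of 22.3 ± 35.1 CPM and TetLowProg one of 9.91 ± 8.66 CPM (SD, n = 3 each). By edgeR the log2 fold changes were -1.19 (SE 4.36, adjusted p = 0.940), -2.97 (SE 4.64, adjusted p = 0.778) and -1.79 (SE 4.43, adjusted p = 1.0) for TetLowReg against TetHighProg, TetLowProg against TetHighProg and TetLowProg against TetLowReg. The first 2 turned to 10.29 and 8.42 without TetHighProg 5, the only library of its group with more than 1 read on Irf2.

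**Figure D2:**
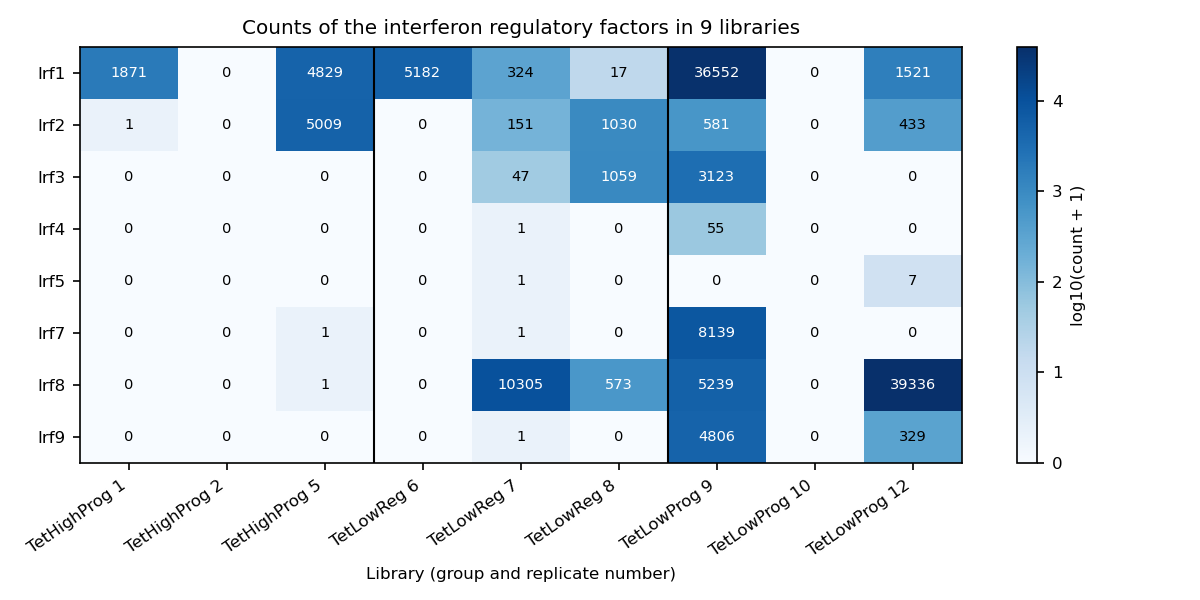
Read counts of the 8 members (rows) in the 9 libraries (columns), printed in the cells, with color as log10(count + 1) and lines between the groups. Irf1 is filled in 7 libraries, Irf8 in TetLowReg 7 and 8 and TetLowProg 9 and 12, and Irf4 and Irf7 reach 10 counts in TetLowProg 9 alone.

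The pair that induces type I interferon was sparse. Irf3 lies on chr7:44647033-44652272 (plus strand) and had no read in TetHighProg, 0, 47 and 1059 counts in TetLowReg, and 3123, 0 and 0 counts in TetLowProg. It was thus found in 3 libraries, and a library at 0 stood in every group. Over the pooled counts Irf3 was at least 401-fold higher in TetLowReg and at least 912-fold higher in TetLowProg than the 3 counts over the group that a count of 0 in TetHighProg allows, a bound that covers counting error only. The edgeR log2 fold changes were 12.50 (SE 6.26, adjusted p = 0.233) and 11.98 (SE 6.14, adjusted p = 0.193), and neither was called, though limma-voom called the first (adjusted p = 0.0317). The first rested mainly on TetLowReg 8, with 1059 of 1106 counts, and was 8.05 without it. The second rested on TetLowProg 9 and was 0.00 without it. Between the low avidity groups the log2 fold change was -0.52 (SE 4.17, edgeR adjusted p = 1.0), and it was positive with library size in place of TMM scaling (0.52).

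Irf7, on chr7:140842619-140846398 (minus strand), was a gene of 1 library. It had 8139 counts (224 CPM) in TetLowProg 9, 1 count each in TetHighProg 5 and TetLowReg 7, and 0 in the other 6. It did not pass the edgeR filter on low counts, and the two-sided exact permutation test on CPM gave p = 1.0 for each comparison with TetLowProg. The pooled ratio of TetLowProg to TetHighProg was 7127 (95% counting interval 1279 to 281540), an interval that covers counting error only and says nothing of the spread between libraries. Their products' classical target Ifnb1 had 0 counts in all 9 libraries. Ifng, the interferon of T cells themselves, had 2349 counts in TetLowReg 7 and 11244 in TetLowProg 9, 1 in TetHighProg 5 and 0 elsewhere.

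Irf5 was not detectable in any library by the unstranded counts. It lies on chr6:29526276-29541870 (plus strand) and had 1 count in TetLowReg 7, 7 in TetLowProg 12 and 0 in the other 7. By the GENCODE M39 gene models its exons share 416 bases with Tnpo3, a nuclear import receptor gene on the opposite strand. The unstranded column leaves out reads at overlapping genes. Counted on each strand alone, Irf5 had 4055 reads in all, 2699 of them in TetLowProg 12 and 937 in TetLowReg 8. Tnpo3 itself had 8817 and 4624 unstranded counts in these libraries, while Irf5 had 7 and 0. Whether the added reads lie on the stretch shared with Tnpo3 was not tested. Read positions were not analysed here, and the annotation release behind the counts is not given in the sources used here. With the strand columns summed, edgeR gave Irf5 log2 fold changes of 5.93 (adjusted p = 0.476) and 6.18 (adjusted p = 0.452) against TetHighProg and 0.25 (adjusted p = 0.9996) between the low avidity groups, none of them called. Of the receptors upstream of Irf5 and Irf7, Tlr4, Tlr7 and Tlr9 had at most 1 count in a library, while the adaptor Myd88 had 2052 counts in TetLowReg 7, 2627 in TetLowProg 9 and 262 in TetLowProg 12.

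Irf4, the factor tied to TCR signal strength, reached 10 counts in 1 library only. It lies on chr13:30933209-30950959 (plus strand), overlaps no other gene's exons, and had 55 counts (1.51 CPM) in TetLowProg 9, 1 in TetLowReg 7 and 0 in the other 7 libraries. In TetHighProg 5 its count was 0 among 22688777, which allows at most 0.132 CPM (3 counts in that library) and covers counting error only. TetHighProg 1 and 2 were also at 0, and both were poor in genes. Of the CD8 chains, Cd8b1 had 79539 and 78155 counts there and Cd8a had 0. Irf4 did not pass the edgeR filter, and the two-sided exact permutation p was 1.0 in all 3 comparisons. Batf, its partner in activated T cells, had 1007 counts in TetHighProg 5 and 1709 in TetLowProg 9 and at most 1 elsewhere. The 10 genes listed for the IRF4 program of activated T cells each reached 10 counts in some library, but a library held only 0 to 7 of them. The list carries no direction of regulation by IRF4. Tcf7, the stem-like T cell factor, was found in 7 libraries and Myc in 6, while Batf and Prdm1 were found in 2 each. Prdm1, which encodes Blimp-1, reached 470 counts in TetHighProg 5 and 2397 in TetLowProg 9.

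Irf8 was present in 2 of 3 libraries of each low avidity group and had at most 1 read in a high avidity library. It lies on chr8:121463096-121485659 (plus strand) and shares no exon bases with another gene. Its counts were 0, 0 and 1 in TetHighProg, 0, 10305 and 573 in TetLowReg, and 5239, 0 and 39336 in TetLowProg, or 0, 283 and 34.9 CPM in TetLowReg and 144, 0 and 1249 CPM in TetLowProg. The remaining low avidity libraries, TetLowReg 6 and TetLowProg 10, are poor in genes and were at 0, so both groups overlapped TetHighProg. Irf8 was among the genes named by the study from these same libraries, so its direction here is not independent of that choice. The edgeR log2 fold change was 13.33 (SE 5.86, adjusted p = 0.233) for TetLowReg against TetHighProg and 14.62 (SE 6.10, adjusted p = 0.193) for TetLowProg against TetHighProg, comparisons that share the TetHighProg libraries. Neither was called. With 1 library left out they ran from 10.11 (without TetLowReg 7) to 15.28 and from 11.77 (without TetLowProg 12) to 16.58. TetLowReg 7, with 10305 of the 10878 counts of its group, had 44.5% of its gene counts on mitochondrially encoded genes. TetLowReg 8 had 14.2%, against 1.36% to 6.07% in the other 7 libraries. Fitted without these genes, the edgeR log2 fold changes of Irf8 against TetHighProg were 13.36 (adjusted p = 0.236) in TetLowReg and 14.72 (adjusted p = 0.178) in TetLowProg. Any other link of these shares to the Irf8 values was not tested. Against TetLowReg, TetLowProg differed by 1.29 (SE 3.64, edgeR adjusted p = 1.0), which turned to -1.59 without TetLowProg 12. The fitted values depend on the small count that edgeR adds to a group with 1 read. The pooled ratios were 11829 (95% counting interval 2123 to 467266) and 39033 (7005 to 1541765), and the two-sided exact permutation test on CPM gave p = 0.4 in each, where 3 libraries against 3 cannot go below 0.1.

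The call on Irf8 depended on the tool. DESeq2 with default size factors called it higher in TetLowReg (adjusted p = 0.00198) and in TetLowProg (adjusted p = 0.000314) than in TetHighProg, and limma-voom did so too (adjusted p = 0.00745 and 0.000372). The same settings called a large part of all genes higher in the low avidity groups, 34.1% and 42.7% of genes by DESeq2 and 41.3% and 49.6% by limma-voom. DESeq2 with poscounts size factors (adjusted p = 0.00453 and 0.00168) and on the 2 groups alone (adjusted p = 0.0107 and 0.000952) called Irf8 as well, beside 25.8% and 23.2% and beside 33.6% and 45.7% of genes. On the 5 libraries with more than 3000 genes, of which 1 is TetHighProg, edgeR gave Irf8 log2 fold changes of 12.63 (adjusted p = 0.221) and 14.00 (adjusted p = 0.177), the lone TetHighProg library being assumed to vary like the others.

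The libraries with Irf8 held more genes of any kind, markers of other cell types among them. Of the 13373 genes found in any library, 48.2% to 60.4% reached 10 counts in the 4 libraries with Irf8 and 4.48% to 23.8% in the other 5. T cell markers were at 11 or 12 of 12 against 4 to 11. In the 4 libraries with Irf8, 1 to 11 of 12 B cell markers reached 10 counts, with a summed level of 242 to 4010 CPM, against 0 or 1 marker and 0.136 to 6.52 CPM in the other 5. For MHC class II genes it was 5 to 9 of 9 (156 to 61766 CPM) against 1 or 2 (0.998 to 1497 CPM), for macrophage and monocyte markers 3 to 6 of 12 (350 to 8588 CPM) against 0 to 2 (0.0790 to 1978 CPM), and for dendritic cell markers 2 to 5 of 9 (474 to 1783 CPM) against 0 to 2 (0.0454 to 1863 CPM). Markers of CD4 T cells and Tregs were at 1 to 4 of 5 (71.2 to 241 CPM) against 0 or 1 (0 to 2.25 CPM). In TetLowProg 9, the highest of these, the CD4 T cell and Treg list was Ctla4 (8764 counts) alone, which activated CD8+ T cells express too, and Cd4, Foxp3, Il2ra and Ikzf2 were at 0. The summed levels did not overlap for the B cell and the CD4 T cell lists, and they overlapped for the class II, macrophage and dendritic cell lists. The tumor and stroma list was at 1 to 4 of 7 (0.857 to 11.6 CPM) with Irf8 and at 0 or 1 (0 to 372 CPM) without it. T cell markers summed to 892 and 1476 CPM in TetLowReg 7 and 8 and to 2831 to 7613 CPM in the other 7 libraries. The B cell antigen receptor subunit Cd79a had 4971, 1737 and 5137 counts in TetLowReg 7, TetLowReg 8 and TetLowProg 12, and Spi1, the partner of IRF8 in B and myeloid cells, had 2677 in TetLowReg 7 and 3420 in TetLowProg 12. TetLowProg 9 differed from these 3. There Irf8 had 5239 counts while Ms4a1, Cd79a, Cd79b, Lyz2, Csf1r, Adgre1, Flt3, Itgax, Zbtb46 and Spi1 were all at 0, but it did hold Ighm (8777) of the B cell list, Ly6c2 (12147), Cd68 (570) and C1qb (15) of the macrophage and monocyte list, and Ccr7 (63999) and Siglech (807) of the dendritic cell list. It also held 5 of the 9 class II genes, H2-Ab1 (2068), H2-Oa (1550), H2-DMa (992), H2-Eb1 (895) and H2-Aa (151). Ly6c2 and Ccr7 are expressed by T cells too. The part of such cells in the Irf8 values was not tested.

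**Figure D3:**
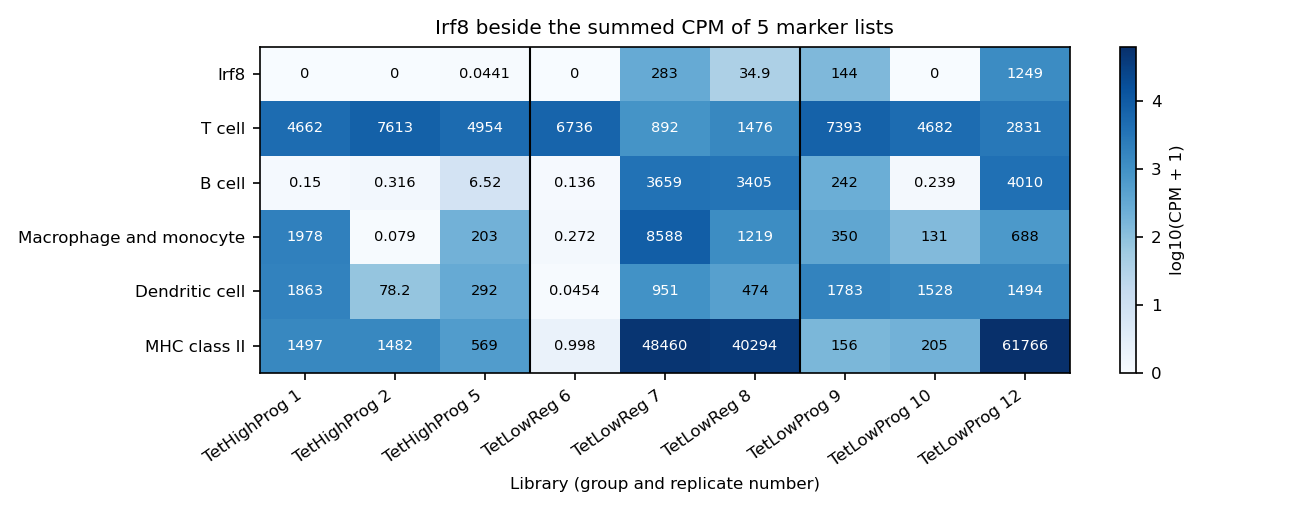
Irf8 (top row) and the summed CPM of the T cell, B cell, macrophage and monocyte, dendritic cell and MHC class II marker lists (rows below) in each library, printed in the cells, with color as log10(CPM + 1). Irf8 stands at 34.9 to 1249 CPM in the 4 libraries with the highest B cell sums, which TetLowProg 9 reaches through Ighm.

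Irf9, the DNA-binding part of ISGF3, was found in TetLowProg alone, on chr14:55841028-55847812 (plus strand). Its counts were 4806, 0 and 329 in TetLowProg (132, 0 and 10.4 CPM), 0, 1 and 0 in TetLowReg and 0 in TetHighProg. One TetLowProg library was at 0, so the groups overlapped. Pooled, Irf9 was at least 1499-fold higher in TetLowProg than the limit of TetHighProg, and 4135-fold (95% counting interval 742 to 163358) higher than in TetLowReg, with a two-sided exact permutation p of 0.4 in both. It did not pass the edgeR filter, and 282 of its exon bases are shared with Rnf31, which lies on the same strand. DESeq2 with default size factors called Irf9 higher in TetLowReg than in TetHighProg (adjusted p = 0.00368) on the single read of TetLowReg 7, and higher in TetLowProg (adjusted p = 4.12e-10). Its partner Stat2 had 2008 and 1963 counts in TetLowProg 9 and 12, the 2 libraries with Irf9, and at most 17 in any other.

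No member was called by edgeR in any of the 3 comparisons (0 of 4 tested, beside 0.0% of 5813 genes), and for no member did the groups fail to overlap, which they did for 5.8%, 7.17% and 3.42% of genes in TetLowReg against TetHighProg, TetLowProg against TetHighProg and TetLowProg against TetLowReg. At an unadjusted edgeR p under 0.05 in the fit to all 9 libraries, Irf3 and Irf8 were higher in TetLowReg than in TetHighProg, and Irf8 was higher in TetLowProg than in TetHighProg, beside 19.0% and 24.8% of all genes higher and 0.516% and 0.55% lower. The median gene rose by a fitted 4.82 and 5.40 on the log2 scale in these comparisons, so a positive value was the common case. Relative to it, Irf8 and Irf3 lay above the median gene, and Irf1 and Irf2 below. Between the low avidity groups no member passed an unadjusted edgeR p of 0.05 in that fit, beside 0.43% of genes higher in TetLowProg and 0.499% lower. On the 5 libraries with more than 3000 genes, Irf1 (log2 fold change 5.33) and Irf7 (11.19) passed it, beside 266 genes higher in TetLowProg and 218 lower of 12933, and neither was called (edgeR adjusted p = 0.701 for each). DESeq2 and limma-voom called no member between these groups, with adjusted p values of 0.0550 to 0.347 for Irf9 by DESeq2, where DESeq2 called 1.52%, 0.261% and 0.189% of genes higher in TetLowProg with default size factors, with poscounts and on the 2 groups alone.

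**Figure D4:**
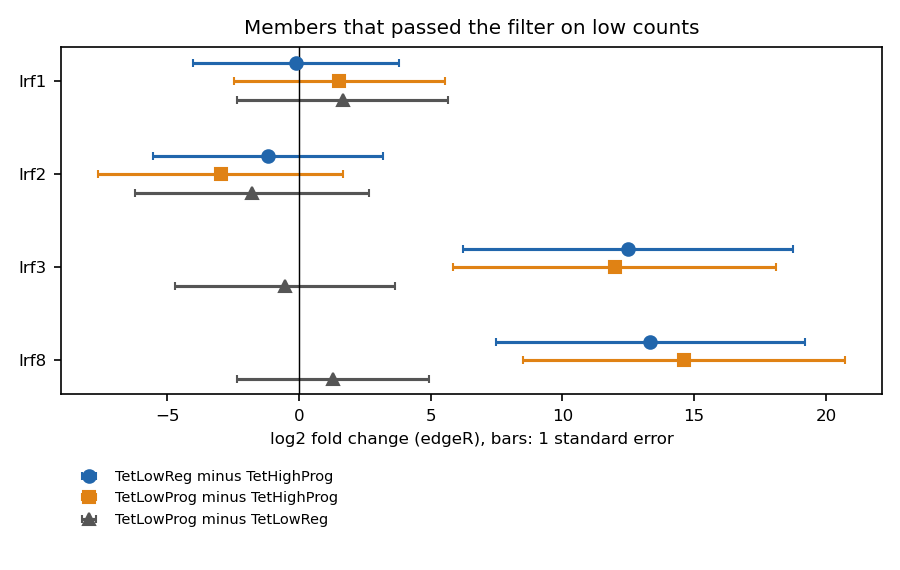
Fitted edgeR log2 fold changes (horizontal axis) of the 4 members that passed the filter on low counts, for the 3 comparisons, with bars of 1 standard error. Irf8 and Irf3 lie between 11.98 and 14.62 against TetHighProg, and all values of Irf1 and Irf2 lie within 1 standard error of 0.

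Compared per kilobase of merged exon, the leading member differed from library to library. Merged exons join all annotated transcripts of a gene, for Irf7 into 1 stretch of 3780 bases, and bases shared with other genes stay in the length. The order between members depends on these lengths. Irf1 led in TetHighProg 1 and 5, TetLowReg 6 and TetLowProg 9, at 11.97, 45.5, 50.3 and 215 CPM per kb. Irf8 led in TetLowReg 7 and TetLowProg 12, at 29.1 and 128 CPM per kb, where it made up 91.6% and 90.6% of the family's summed level. With TMM scaling the level of Irf8 in TetLowReg 7 was 50.1, and scaling leaves the order within a library as it is. Irf3 led in TetLowReg 8 at 18.5 CPM per kb, ahead of Irf2 (5.62), Irf8 (3.59) and Irf1 (0.221). In TetLowProg 9, the library with the widest set, the order was Irf1, Irf7 (59.3), Irf3 (24.7), Irf9 (22.8), Irf8 (14.8), Irf2 (1.43) and Irf4 (0.309). Among libraries with reads, Irf1 stood above Irf2 in both of TetHighProg, and Irf1, Irf9 and Irf2 kept this order in both of TetLowProg. The order was not the same in the TetLowReg libraries, and Irf1 and Irf8 changed places between TetLowProg 9 and 12.

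**Figure D5:**
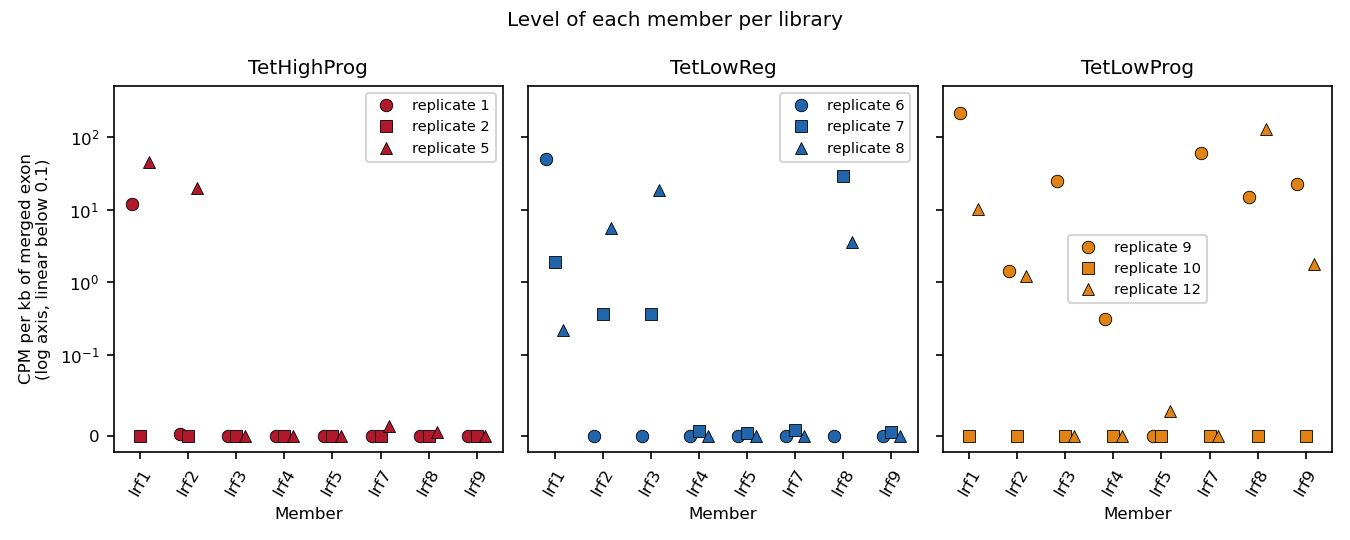
Level of each member in CPM per kb of merged exon (log axis, linear below 0.1) in the 3 groups, with 1 symbol per library. Irf1 spans 0 to 215 CPM per kb within TetLowProg, and points on the base line are libraries without reads.

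The genes whose log2(CPM + 1) followed a member most closely over the 9 libraries are given as a description, since these libraries share which genes they hold. For Irf8 they were Slmap (Pearson r = 0.9989), Lmna (0.9966) and 0610030E20Rik (0.9955), and 9.15% of tested genes had r above 0.9 with it. For Irf3 they were Cd274, which encodes PD-L1, Pacs1 and Fcho2 (r from 0.9993 to 0.9994), with 4.65% of genes above 0.9. Cd274 had 68, 1598 and 6020 counts in the 3 libraries with Irf3 and at most 4 in the others. For Irf2 they were Polr2k (0.99), 5830432E09Rik (0.99) and Tbce (0.98), with 3.51% above 0.9. Irf1 had no gene above 0.9, and the closest were Npm1 (0.88), Dse (0.88) and Nlrc5 (0.86).

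Genes around the family in the interferon pathway were called in no comparison by edgeR either, and none of the lists had a member lower in a low avidity group than in TetHighProg at an unadjusted p under 0.05. Of the sensors, adaptors and kinases upstream of the IRFs, 12 of 16 were found in some library and 7 were tested, with 2 higher in TetLowReg and 3 in TetLowProg than in TetHighProg at an unadjusted edgeR p under 0.05, beside 19.0% and 24.8% of all genes. At the same threshold it was 1 and 1 of 9 receptor and JAK-STAT genes, 1 and 2 of 6 partners and cofactors, 0 and 1 of 13 interferon-induced genes, 0 and 0 of 12 antigen presentation genes and 0 and 1 of 3 genes of the IRF4 program. The kinase Ikbke, which phosphorylates IRF3 and IRF7, had 10267 counts in TetLowProg 9 and 1270 in TetLowProg 12 and at most 6 elsewhere, the RNA sensor Rigi had 5852 in TetHighProg 5, 337 in TetLowReg 8, 4713 in TetLowProg 9 and 10704 in TetLowProg 12, and Irak1 was highest in TetLowProg 9 (5757). All 9 of 9 interferon receptor, JAK and STAT genes were found in some library, from 1 of them in TetLowReg 6 to 9 in TetLowProg 12. Jak1 was found in 7 libraries and Ifngr1 in 8, while Stat2 was found in 4. The median log2 fold change of these genes was 1.72 and 6.84 against TetHighProg, beside 4.82 and 5.40 for all genes. Partners and cofactors were found for 10 of 12, among them Jund in 7 libraries and Ikzf1 and Irf2bp1 in 5 each.

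Genes that the family is known to act on were found mostly in the libraries with over 3000 genes, which also held more members. Of 24 interferon-induced genes, 22 were found in some library. In TetHighProg 2 and TetLowProg 10, without a read on any member, 0 and 2 reached 10 counts, and 1 each did in TetHighProg 1 and TetLowReg 6. The numbers were 13, 15, 8, 16 and 10 in TetHighProg 5, TetLowReg 7 and 8, and TetLowProg 9 and 12. Of the list 13 were tested, with medians of 0.34 in TetLowReg and 0.89 in TetLowProg on the log2 scale against TetHighProg. For all genes the medians were 4.82 and 5.40. The GTPase gene Gbp4 was 1 of the 2 found in TetLowProg 10 and reached its highest count there, 41092, beside Gbp7 at 49. TetHighProg 1, with 1871 counts of Irf1, had 1 count of Gbp4. Gbp7 and Gbp3 were found in 6 and 5 libraries. Ifit1 and Oas1a had 0 counts in every library. Of 13 genes of antigen presentation, 12 were tested, with medians of -0.26 and 2.08 beside the same 4.82 and 5.40. B2m had 15966 to 204162 counts in all 9 libraries, and H2-K1 and H2-D1 were found in 7, with 0 to 7 counts in TetHighProg 2 and TetLowReg 6.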

How the data were processed

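RNA was measured in 9 libraries of sorted T cells. The deposited values are unnormalized counts of reads per gene, which the authors made on GRCm39. The submitters' processing notes name STAR 2.7.6a and featureCounts. The unstranded column was used and reads at overlapping genes are left out of it. Symbols and positions came from GENCODE M39, and CPM is per 1000000 gene counts. The quasi-likelihood test of edgeR 4.0.16 (TMM, default filter, R 4.3.3) was fitted to the 3 groups together, and a two-sided p adjusted by Benjamini-Hochberg under 0.05 with a log2 fold change beyond 2 in size made a call. DESeq2 1.42.0 and limma 3.58.1 (voom with quality weights) were alternatives, besides other filters, scalings and libraries left out. Detection meant 10 counts. A count of 0 over a group was given a limit of 3 counts. Intervals are exact binomial at 95% and cover the counting error of reads only. PCR copies carry no molecular identifiers, so reads are not independent draws of RNA molecules. As statements on RNA the intervals and limits may be too narrow.

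The members and gene lists were chosen with earlier results of these data known. The genes given by name are the members, the 3 tested genes most like each tested member, and, as no list gene was called, the 3 genes of each list with the highest median CPM. Other genes were named after their values were seen: Stat2, Batf, Myd88, Tlr4, Tlr7, Tlr9, Ifit1, Oas1a, Cd274, Tnpo3, Spi1 and single markers. Some genes that this rule would name are not reported here. Protein sequences were not used here.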

Additional observations from a re-analysis of the deposited data

Results flagged for a closer look

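The strand columns, which the main comparisons did not use and which entered only the alternative that sums them, held 4055 reads under Irf5 over the 9 libraries, against 8 in the unstranded column. By the GENCODE M39 gene models, which may differ from those used for counting, Irf5 shares 416 of 7167 exon bases with Tnpo3, and read positions were not analysed here. The 4047 extra reads were in TetHighProg 1, TetLowReg 7 and 8, and TetLowProg 9 and 12, the same libraries in which Tnpo3, on the opposite strand, had 187 to 8817 unstranded counts. Each group held 3 libraries, too few for a search for single libraries far from the rest.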

How the results depend on the processing

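No paired analysis was possible because the groups compared share no replicate number, and the labels do not say which TetHighProg and TetLowProg libraries came from the same tumor. The number of members called was 0 in all 3 comparisons under each edgeR alternative, including those that left out 1 library (0 to 0). The strict filter tested Irf1 alone, and edgeR on the 2 groups tested only Irf1 and Irf2 against TetHighProg, so these 0s say nothing of Irf3 and Irf8. Against TetHighProg, DESeq2 with default size factors called 2 members in TetLowReg and 2 in TetLowProg, DESeq2 with poscounts size factors 1 and 1, DESeq2 on the 2 groups alone 1 and 2, and limma-voom 2 and 1, beside 34.1% and 42.7%, 25.8% and 23.2%, 33.6% and 45.7%, and 41.3% and 49.6% of genes called higher. Irf8 was called by each of these, Irf3 by limma-voom in TetLowReg (adjusted p = 0.0317), and Irf9 by DESeq2 at default size factors in both groups and on the 2 groups alone in TetLowProg. The cause was not tested.

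Some small fold changes changed sign. For Irf1 in TetLowReg against TetHighProg the log2 fold change was 0.33 without a filter, 1.58 with DESeq2 and poscounts, 0.81 with DESeq2 on the 2 groups and 1.76 with limma-voom, and -3.25 to 1.45 with 1 library left out. With poscounts it was -1.96 for TetLowProg against TetHighProg and -3.54 against TetLowReg, and -1.65 to 2.74 and -1.59 to 4.59 with 1 library left out. Irf2 turned to 7.63 in TetLowReg and 6.61 in TetLowProg against TetHighProg with limma-voom. With 1 library left out it ran from -4.08 to 10.29, from -3.62 to 8.42 and, between the low avidity groups, from -2.45 to 1.30, the last sign change coming without TetLowReg 8. Between the low avidity groups Irf3 was 0.52 by library size, 0.037 without mitochondrially encoded genes and -12.22 to 4.39 with 1 library left out, and Irf8 was -1.59 to 4.63.

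Leaving out 1 library moved the share of members detected to 6.25% to 18.75% in TetHighProg, 31.25% to 50.0% in TetLowReg and 25.0% to 68.75% in TetLowProg. At 1 count in place of 10 the shares were 25.0%, 54.2% and 50.0%. Median levels per kb moved by less than the spread between libraries, which is wide, with TMM scaling or without mitochondrially encoded genes (1.36% to 44.5% of gene counts). In TetLowReg the medians still rose from 1.90 to 3.27 and 3.43 CPM per kb for Irf1, from 0.371 to 0.638 and 0.668 for Irf2 and from 0.371 to 0.638 and 0.668 for Irf3, and with TMM that of Irf8 in TetLowProg fell from 14.8 to 9.26 and the level of Irf8 in TetLowReg 7 rose from 29.1 to 50.1. Each group held 3 libraries, with spreads about as large as the means or larger, and the main edgeR fit called 0 of 5813 genes in each comparison. Even contrasts near presence against absence were not called by it, such as Irf8 with 44575 pooled counts in TetLowProg against 1 in TetHighProg.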
